A study of Mus musculus with 6 samples.

Results

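The genes described here encode calcineurin, its Rcan regulators and the NFAT transcription factors that it activates. They were chosen by name, as the rows of the count table whose symbol was Rcan1, Rcan2, Rcan3, Ppp3ca, Ppp3cb, Ppp3r1, Nfatc1, Nfatc2, Nfatc3 or Nfatc4, and all 10 were measured among the 13384 genes of the table. Polyadenylated RNA was sequenced from left ventricles of 3 adult mice that lack cytoglobin, a globin of fibroblasts and vessel walls, in all tissues (Cygb(-/-), called knockout or KO) and of 3 wild-type littermates (Cygb(+/+), called WT), with 1 mouse per library. Every mouse, controls included, had carried a 14-day osmotic pump that delivered the pressor hormone angiotensin II at 1.5 mg/kg/day, and ventricles were taken after 2 weeks. Untreated mice were not analysed here, so the values say nothing of the response to the hormone itself. The sources used here do not give strain, sex or age in weeks. Cygb itself was not analysed here, and the genotypes rest on the labels.

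Calcineurin is a phosphatase switched on by calcium and calmodulin. It is made of a catalytic A subunit, encoded by Ppp3ca or Ppp3cb in the heart, and a calcium-binding B subunit, encoded by Ppp3r1. It removes phosphates from the NFAT proteins Nfatc1, Nfatc2, Nfatc3 and Nfatc4, which then enter the nucleus, and in mice its forced activity in heart muscle causes cardiac enlargement. The Rcan proteins bind calcineurin and can inhibit it. Rcan1 has an internal promoter that NFAT itself activates, and its transcript is for that reason often read as a gauge of calcineurin activity.

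The 250 bases before RefSeq starts of Rcan1 and Nfatc4 are shown because these were the genes furthest apart between the genotypes. Each window lies within the span of its gene given below, so none precedes the outermost annotated start. The sequences are those of RefSeq on GRCm38.p6, read 5′ to 3′ on the gene's own strand. Capitals mark the NFAT core GGAAA or, where the core lies on the other strand, TTTCC, and these cannot overlap each other.
Rcan1, internal start, minus strand, chr16:92400079-92400328: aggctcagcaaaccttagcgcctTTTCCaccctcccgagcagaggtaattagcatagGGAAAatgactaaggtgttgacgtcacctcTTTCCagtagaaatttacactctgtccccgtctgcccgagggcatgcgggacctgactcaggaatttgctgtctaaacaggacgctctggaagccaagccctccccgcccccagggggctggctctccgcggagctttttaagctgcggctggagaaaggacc
Rcan1, distal start, minus strand, chr16:92466170-92466419: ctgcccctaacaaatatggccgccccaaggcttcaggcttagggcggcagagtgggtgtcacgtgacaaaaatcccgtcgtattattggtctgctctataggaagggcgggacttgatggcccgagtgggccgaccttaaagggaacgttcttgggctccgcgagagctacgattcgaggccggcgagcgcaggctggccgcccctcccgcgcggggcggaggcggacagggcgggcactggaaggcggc
Nfatc4, plus strand, chr14:55824545-55824794: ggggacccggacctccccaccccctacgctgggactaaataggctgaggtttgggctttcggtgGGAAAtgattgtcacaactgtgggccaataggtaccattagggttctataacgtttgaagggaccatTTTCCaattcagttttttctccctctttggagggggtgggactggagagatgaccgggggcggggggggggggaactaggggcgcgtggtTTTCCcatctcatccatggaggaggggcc
The internal Rcan1 window held 3 cores, which begin 227, 193 and 163 bases before the start, and the distal Rcan1 window held 0. The Nfatc4 window held 3 as well. So did the window of Ppp3cb, a gene not lower in the knockout, and a window of Nfatc2, whose knockout and wild-type levels overlapped. At least 3 cores were present in 6.39% of all 32851 such windows, and at least 1 in 55.6%. The internal Rcan1 window also held TGANTCA, a site of the AP-1 factors with which NFAT pairs, 110 bases before the start. That motif, which is its own reverse complement and did not overlap a core there, was present in 6.75% of all windows. Windows were found for 8 of the 10 genes, 13 in all, and 8 of these 13 held at least 1 core. A match is a run of letters and not a measured binding site.

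Library totals ran from 23190864 to 30354857 counts. The biological coefficient of variation common to all genes was 0.166. Levels are given as CPM, a count relative to its library total, after TMM scaling, which corrects the totals for composition. Heart muscle defined all 6 libraries, with 52299 to 62498 CPM in the knockout and 52837 to 71090 CPM in WT for the sum of 7 ventricular muscle markers. Wild-type replicate 1 stood apart in atrial muscle markers, with a sum over the 7 measured of 8 listed markers of 879 CPM. The knockout libraries were at 88.9 to 93.1 CPM and wild-type replicates 2 and 3 at 133 and 143 CPM. Wild-type replicate 2 stood apart in 5 activated fibroblast markers, with a sum of 693 CPM. Here the knockout libraries were at 136 to 213 CPM and wild-type replicates 1 and 3 at 154 and 190 CPM. The 6 T cell markers listed were not analysed here. In whole tissue, fewer cells of a type and less RNA per cell cannot be told apart.

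None of the 10 genes passed edgeR's quasi-likelihood test at an adjusted p of 0.05, a test that 0.112% of all genes passed, with 0.0897% higher and 0.0224% lower in the knockout. Rcan1 and Nfatc4 had the largest differences among the 10, with lower levels in all 3 knockout ventricles than in any wild-type ventricle. The groups did not overlap for 5 of the 10 genes, with Rcan1, Rcan2 and Nfatc4 lower and Ppp3cb and Nfatc3 higher in the knockout. Over all genes the groups did not overlap for 22.3%, 11.8% being higher and 10.5% lower in the knockout. An unadjusted p under 0.05 was found for 2 of the 10, both lower in the knockout, and for 19.2% of all genes, 8.94% being lower and 10.2% higher. Of the 10 genes 6 were below 0, against 50.6% of all genes, and they had a median log2 fold change (knockout minus WT) of -0.036, against -0.0045 over all genes.

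**Figure D1:**
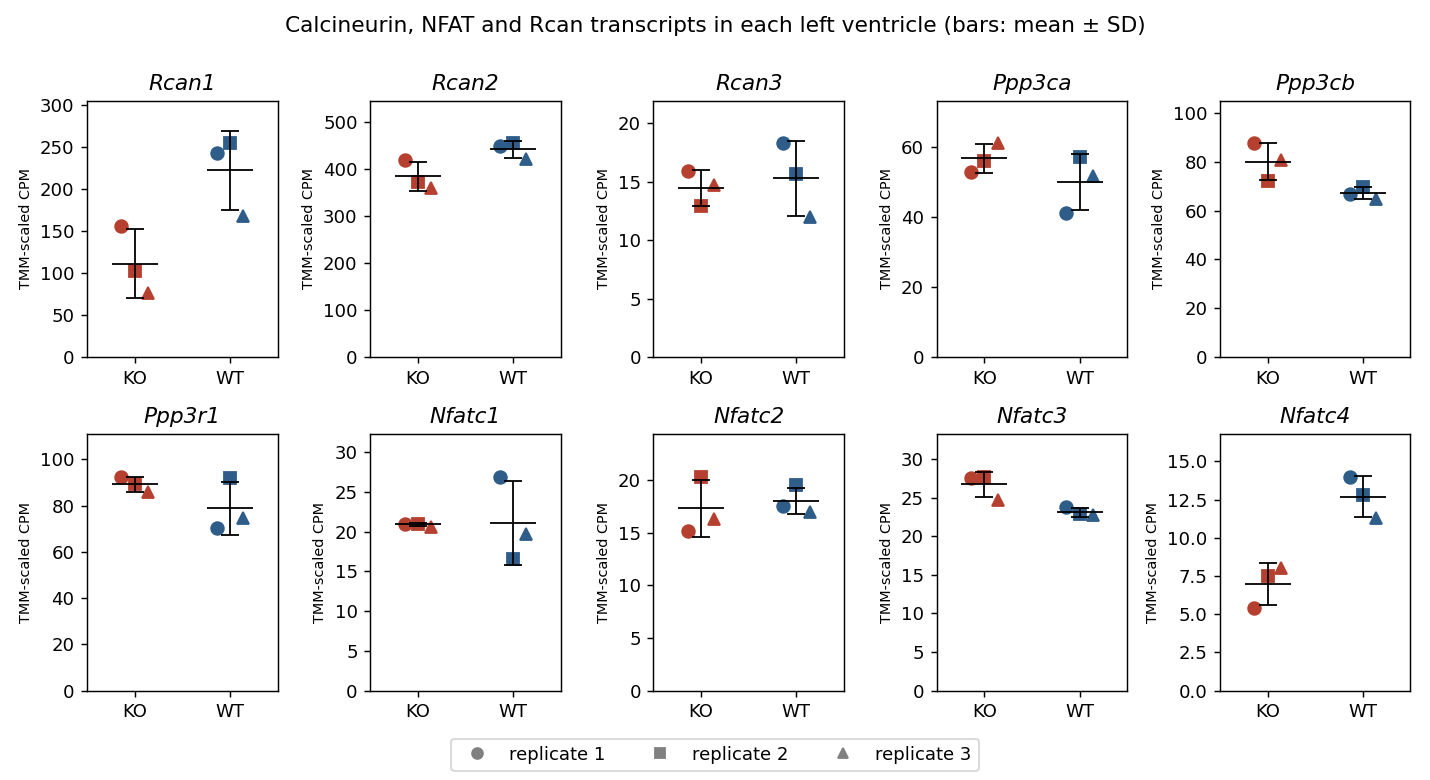
TMM-scaled CPM of each of the 10 genes in the 3 knockout (KO, left) and 3 wild-type (WT, right) ventricles, with the mean and SD of each group as black bars and a separate axis from 0 for each gene. Rcan1 and Nfatc4 show the widest gap between the groups, and Nfatc1 shows nearly equal means with a wide spread in WT.

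Rcan1 lies on chromosome 16 from 92391953 to 92470867 (GRCm38, GENCODE M21). It was at 156, 102 and 76.0 CPM in knockout replicates 1, 2 and 3, against 243, 254 and 168 CPM in the wild-type replicates. The lowest wild-type and the highest knockout libraries were close, at 168 and 156 CPM, and the knockout libraries themselves spread 2.05-fold. The mean was 111 ± 40.7 CPM in the knockout and 222 ± 47.1 CPM in WT (SD, n = 3 each). The log2 fold change was -0.99 (SE 0.26, 95% interval -1.59 to -0.40), with an unadjusted p of 0.00464 and an edgeR adjusted p of 0.115. That p ranked 540 among all genes, and 0.799% of all genes had a log2 fold change as low as that of Rcan1 or lower. DESeq2, which called 4.62% of all genes, called Rcan1 (adjusted p = 0.00189), and over 15 alternatives the adjusted p ran from 0.00106 to 0.356 with a log2 fold change of -1.31 to -0.78. The counts are given per gene, so transcripts from the internal and the distal start shown above cannot be told apart.

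Rcan2, the most abundant of the family in these hearts by CPM per kilobase of exon, was at 419, 372 and 360 CPM in the knockout and 448, 454 and 421 CPM in WT. The groups did not overlap, but the highest knockout and the lowest wild-type libraries were nearly level. Its log2 fold change was -0.20 (SE 0.12, 95% interval -0.46 to 0.061, edgeR adjusted p = 0.380). Rcan3, the least abundant of the family, was at 15.9, 12.9 and 14.7 CPM in the knockout and 18.3, 15.7 and 12.0 CPM in WT. Its groups overlapped, with a log2 fold change of -0.079 (SE 0.18, 95% interval -0.46 to 0.31, edgeR adjusted p = 0.837).

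The make-up of the Rcan pool does not depend on library scaling. Its shares were not corrected for GC content, which was 54.5% for Rcan1 and 45.9% for Rcan2. Rcan1 gave 26.4%, 21.0% and 16.9% of the summed Rcan counts in the knockout, against 34.3%, 35.1% and 27.9% in WT. All 3 knockout shares were below every wild-type share, and Rcan2 made up most of the remainder, with 75.7% ± 4.52 in the knockout and 65.3% ± 4.14 in WT (SD, n = 3 each). The Rcan1 share was 21.4% ± 4.78 in the knockout and 32.5% ± 3.93 in WT. The difference of -11.0 percentage points had a two-sided exact permutation p of 0.1, the smallest that 3 against 3 libraries allow.

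Ppp3ca and Ppp3cb, catalytic subunit genes of calcineurin, were slightly higher in the knockout, and neither passed. Ppp3cb, the beta A subunit, was at 87.5, 72.2 and 80.5 CPM in the knockout and 66.9, 69.5 and 64.6 CPM in WT, without overlap. Its log2 fold change was 0.26 (SE 0.12, 95% interval -0.0079 to 0.52, edgeR adjusted p = 0.271). Ppp3ca, the alpha A subunit, was at 53.0, 56.1 and 61.1 CPM in the knockout and 41.2, 57.1 and 51.7 CPM in WT, with overlap. Its log2 fold change was 0.18 (SE 0.14, 95% interval -0.12 to 0.49, edgeR adjusted p = 0.499). Ppp3r1, the B subunit that both catalytic forms need, was at 92.5, 89.2 and 86.1 CPM in the knockout and 70.3, 91.8 and 74.5 CPM in WT. Wild-type replicate 2 reached the knockout level, and the log2 fold change was 0.18 (SE 0.13, 95% interval -0.11 to 0.46, edgeR adjusted p = 0.473).

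The balance between the alpha and beta catalytic forms, with Ppp3cc left out, was alike in range. Ppp3ca gave 37.7%, 43.7% and 43.2% of the summed Ppp3ca and Ppp3cb counts in the knockout and 38.1%, 45.1% and 44.5% in WT. The means were 41.5% ± 3.32 in the knockout and 42.6% ± 3.87 in WT (SD, n = 3 each), a difference of -1.0 percentage points (two-sided exact permutation p = 0.5). Replicate 1 had the lowest share in either group.

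Nfatc4, on chromosome 14 from 55823144 to 55833943, had the smallest p of the 10 genes, ranking 112 among all genes. A log2 fold change as low or lower was found for 1.25% of all genes. It encodes an NFAT factor that binds the cardiac factor GATA4. It was at 5.43, 7.49 and 8.03 CPM in the knockout, against 14.0, 12.8 and 11.3 CPM in WT, so the groups lay well apart. These values rest on 133 to 182 counts per knockout library and 329 to 346 counts per wild-type library. The mean was 6.98 ± 1.37 CPM in the knockout and 12.7 ± 1.35 CPM in WT (SD, n = 3 each). The log2 fold change was -0.86 (SE 0.19, 95% interval -1.28 to -0.45), with an unadjusted p of 0.000606 and an edgeR adjusted p of 0.0722. DESeq2 called it (adjusted p = 0.00378), and the adjusted p over 15 alternatives ran from 0.00378 to 0.300, with a log2 fold change of -0.98 to -0.66. It also passed when wild-type replicate 2 was left out (edgeR adjusted p = 0.0191), a fit in which 13.6% of all genes were called.

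The other NFAT genes differed less. Nfatc3, a factor whose loss in mice lessens calcineurin-driven cardiac enlargement, was at 27.5, 27.7 and 24.7 CPM in the knockout and 23.8, 22.9 and 22.7 CPM in WT, without overlap. Its log2 fold change was 0.21 (SE 0.13, 95% interval -0.075 to 0.49, edgeR adjusted p = 0.402). Nfatc1, known for its part in the endocardium and the heart valves, was at 21.0, 21.0 and 20.6 CPM in the knockout and 26.9, 16.6 and 19.7 CPM in WT. The knockout libraries were nearly equal and lay within the wild-type spread (log2 fold change -0.013, SE 0.17, 95% interval -0.39 to 0.36, edgeR adjusted p = 0.976). Nfatc2, a factor best known from T cells, was at 15.2, 20.3 and 16.3 CPM in the knockout and 17.5, 19.5 and 17.0 CPM in WT. Here too the groups overlapped (log2 fold change -0.059, SE 0.15, 95% interval -0.39 to 0.27, edgeR adjusted p = 0.861).

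Within the summed Nfatc1 to Nfatc4 counts, Nfatc4 made up 7.85%, 9.79% and 11.5% in the knockout and 17.1%, 17.8% and 16.0% in WT. Nfatc3 made up 39.8%, 36.2% and 35.5% in the knockout and 28.9%, 31.9% and 32.0% in WT. The groups did not overlap for either share, in opposite directions, and shares of 1 pool are not independent of each other. These shares too were not corrected for GC content, which was 58.8% for Nfatc4 and 45.9% for Nfatc3.

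**Figure D2:**
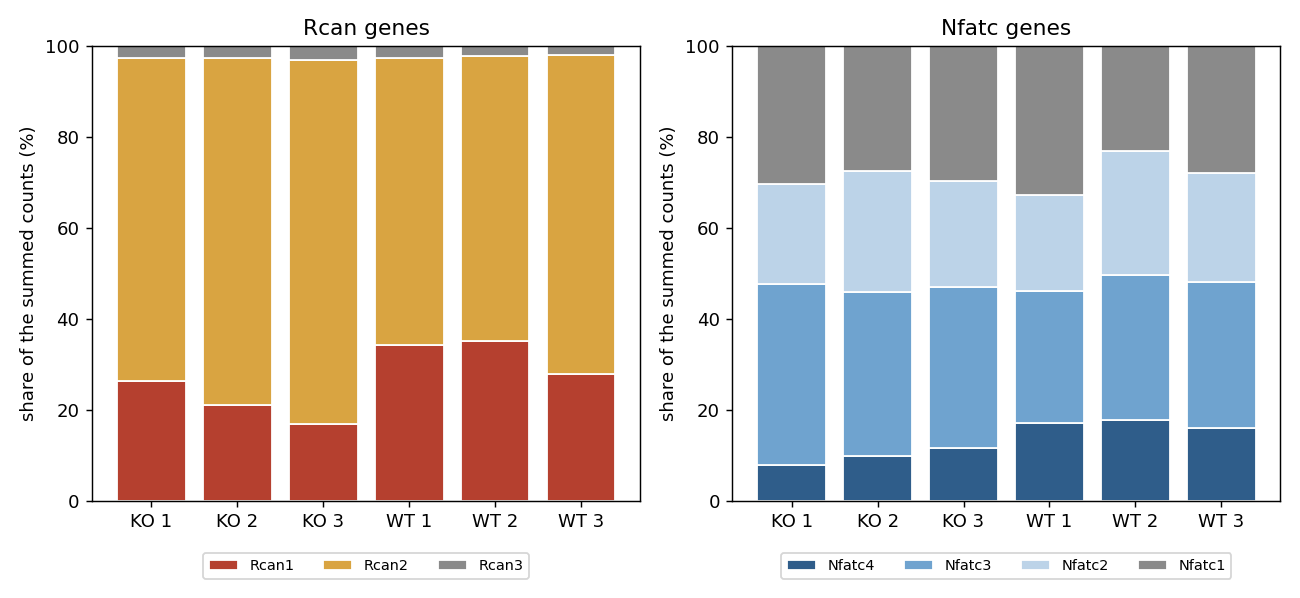
Share (%) of each gene in the summed Rcan counts (left panel) and the summed Nfatc counts (right panel) in each library, knockout (KO) libraries left of wild-type (WT) ones. The Rcan1 share runs from 16.9% to 26.4% in the knockout and from 27.9% to 35.1% in WT, and the Nfatc4 share from 7.85% to 11.5% in the knockout and from 16.0% to 17.8% in WT.

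The small differences of the calcineurin subunits and Nfatc3 were not kept when GC content and length were corrected for together, and neither was corrected for alone. Over all genes, the fifth with the lowest GC content (up to 44.0%) had a median log2 fold change of 0.20, and the fifth with the highest (from 55.6%) one of -0.24. Ppp3cb (39.8% GC), Ppp3r1 (41.4%), Ppp3ca (45.4%) and Nfatc3 (45.9%) lay on the low side, and Rcan1 (54.5%) and Nfatc4 (58.8%) on the high side. Once the dependence of each library on GC content and length had been removed, the log2 fold changes were -0.016 for Ppp3cb, 0.035 for Ppp3r1, 0.017 for Ppp3ca and -0.0021 for Nfatc3. That correction called 0.37% of the genes it could test. Under it Rcan1 was at -0.85 (SE 0.33, edgeR adjusted p = 0.356), Nfatc4 at -0.66 (SE 0.18, edgeR adjusted p = 0.132) and Rcan2, at 45.9% GC, at -0.32 (SE 0.10, edgeR adjusted p = 0.179).

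**Figure D3:**
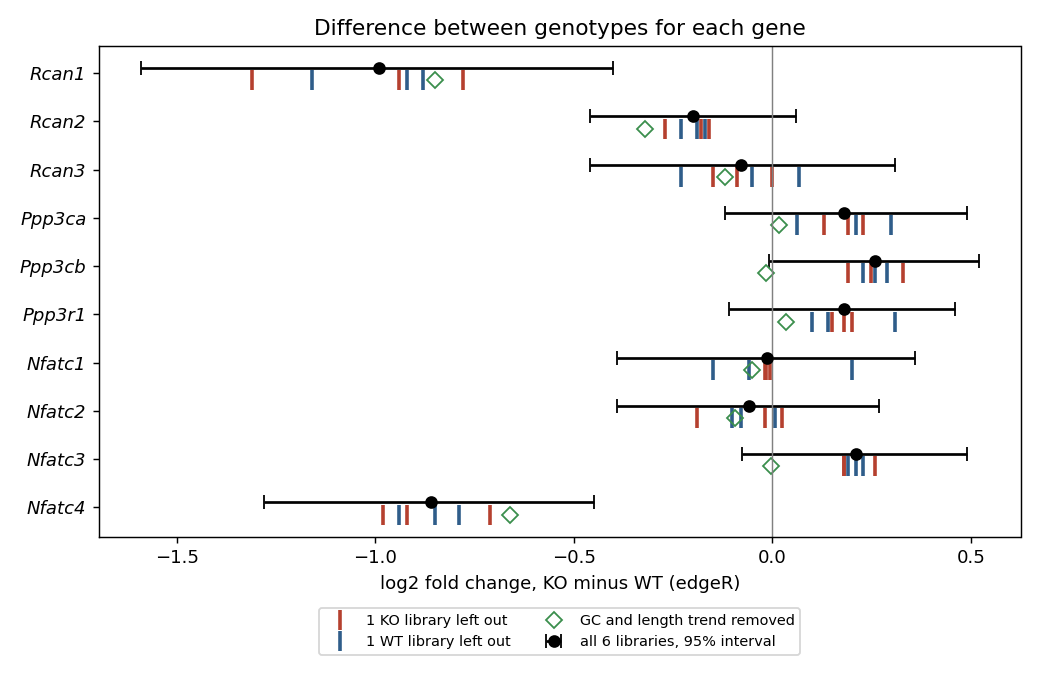
Log2 fold change (knockout minus WT) of each gene with its 95% interval over all 6 libraries (black), with 1 knockout (red) or 1 wild-type (blue) library left out, and after removal of the GC and length trend (green diamonds). Rcan1 and Nfatc4 lie below 0 in all of these fits, and the diamonds of Ppp3ca, Ppp3cb, Ppp3r1 and Nfatc3 lie next to 0.

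By CPM per kilobase of merged exon, a scale on which genes can be compared, Rcan2 and Rcan1 exceeded the enzyme subunits in most libraries. Rcan2 was highest in every library, at 88.8 to 103 in the knockout and 104 to 112 in WT. Rcan1 followed at 27.4 to 56.1 in the knockout and 60.4 to 91.5 in WT, and Ppp3r1 at 30.1 to 32.4 in the knockout and 24.6 to 32.1 in WT. In knockout replicate 3 alone, Rcan1 at 27.4 lay below Ppp3r1 at 30.1. Ppp3cb exceeded Ppp3ca in all 6 libraries, and Nfatc3 exceeded the other NFAT genes in all 6. Rcan3, Nfatc1, Nfatc4 and Nfatc2 had means over the libraries of 2.92, 2.82, 2.41 and 2.11, and their ranges overlapped. Nfatc4 was above Nfatc2 in all 3 wild-type libraries, and below it in knockout replicates 1 and 2. On the same build, Rcan2 on chromosome 17 from 43801351 to 44039516, Rcan3 on chromosome 4 from 135412308 to 135433853, Ppp3ca on chromosome 3 from 136670124 to 136937727 and Ppp3cb on chromosome 14 from 20499364 to 20546573 are protein-coding genes. So are Ppp3r1 on chromosome 11 from 17159263 to 17200375, Nfatc1 on chromosome 18 from 80606205 to 80713071, Nfatc2 on chromosome 2 from 168476410 to 168601657 and Nfatc3 on chromosome 8 from 106058840 to 106130537.

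Other genes of the pathway were read from lists chosen by role, with earlier results of these data known, and 1 of them passed. Of 17 measured regulators and scaffolds of calcineurin, a list that also held the catalytic subunit gene Ppp3cc, none passed edgeR. At an unadjusted p under 0.05, 2 were higher and 2 lower in the knockout, against 19.2% of all genes. The median log2 fold change was -0.048. Fkbp8, of the FK506-binding protein family, was at -0.34 (SE 0.13, edgeR adjusted p = 0.180). Akap6, which anchors calcineurin at the nuclear envelope of heart muscle cells, was at 0.37 (SE 0.14, edgeR adjusted p = 0.196), and the calmodulin gene Calm3 at -0.36 (SE 0.14, edgeR adjusted p = 0.204). With GC content and length corrected for, the log2 fold changes were 0.081 for Fkbp8, 0.011 for Akap6 and -0.084 for Calm3. Of 9 kinases that phosphorylate NFAT, none passed and none had an unadjusted p under 0.05, with a median of 0.16, or 0.028 after that correction. Gsk3a was at -0.28 (SE 0.13), Csnk1a1 at 0.22 (SE 0.13) and Dyrk2 at 0.42 (SE 0.25), and after the correction Gsk3a was at 0.044, Csnk1a1 at -0.053 and Dyrk2 at 0.22. For 11 measured genes of calcium entry and release the median was -0.14, with none past the threshold, and leaving out knockout replicate 3 gave -0.053, and leaving out wild-type replicate 1 gave -0.014. The store-operated channel gene Orai1 was at -0.54 (SE 0.18, edgeR adjusted p = 0.147), the L-type channel gene Cacna1c at 0.35 (SE 0.15, edgeR adjusted p = 0.237) and the inositol trisphosphate receptor gene Itpr2 at 0.39 (SE 0.17, edgeR adjusted p = 0.249). After the correction Orai1 was at -0.25, Cacna1c at 0.12 and Itpr2 at 0.18.

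Among 11 measured partners of NFAT, a list that also held the NFAT relative Nfat5, the median was 0.052 and none passed. With 1 library left out that median ran from -0.043 to 0.11. Mef2a, a transcription factor gene of muscle, was at 91.4, 67.1 and 113 CPM in the knockout and 54.8, 57.6 and 38.9 CPM in WT (log2 fold change 0.84, SE 0.20, edgeR adjusted p = 0.0795). The AP-1 gene Jund was at -0.91 (SE 0.25, edgeR adjusted p = 0.115) and Gata4 at -0.54 (SE 0.18, edgeR adjusted p = 0.141). When wild-type replicate 2 was left out, 10 of the 56 measured genes of the 5 lists passed (17.9%), 4 higher and 6 lower in the knockout, in a fit that called 13.6% of all genes. They included Mef2a (edgeR adjusted p = 0.0359), Jund (0.00180), Gata4 (0.0156) and Orai1 (0.0165). DESeq2 called Mef2a (adjusted p = 0.00372) and Jund (0.00391). With GC content and length corrected for, Jund was at -0.30 (edgeR adjusted p = 0.349), Gata4 at -0.33 (0.278) and Mef2a at 0.58 (0.176). Gata4 was at -0.29 (edgeR adjusted p = 0.330) without wild-type replicate 1.

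Of 8 measured genes held to respond to calcineurin in the stressed heart, 7 were below 0, against 50.6% of all genes, with a median log2 fold change of -0.29, and Acta1 fell. Like the others, this list was chosen with earlier results of these data known. The median was -0.69 under the stricter filter on low genes, -0.61 after the GC and length correction and -0.56 without knockout replicate 2. Acta1, skeletal alpha-actin, was at 786, 729 and 667 CPM in the knockout and 1949, 1790 and 1602 CPM in WT (log2 fold change -1.29, SE 0.13, edgeR adjusted p = 0.00332). It missed the threshold when knockout replicate 3 was left out (log2 fold change -1.23, edgeR adjusted p = 0.0608), a fit that called 0 of the 13384 genes. Nppa, a natriuretic peptide gene, was at 507, 533 and 449 CPM in the knockout and 2282, 2058 and 623 CPM in WT (log2 fold change -1.74, SE 0.50, edgeR adjusted p = 0.171), and passed when wild-type replicate 3 was left out (8.08e-05). With any other library left out, Nppa did not pass, while DESeq2 with all libraries called it (adjusted p = 0.00948). Without wild-type replicate 1, the library with the highest atrial sum, Nppa was at -1.43 (edgeR adjusted p = 0.307). Nppb was at 333, 656 and 302 CPM in the knockout and 1076, 1093 and 578 CPM in WT (log2 fold change -1.09, SE 0.39, edgeR adjusted p = 0.212). Like Rcan1, all 3 were lowest among the wild-type libraries in replicate 3 and lowest among the knockout libraries in replicate 3. The share of all genes with that order was not computed, and same-numbered libraries did not deviate together. Whether the 4 genes share a cause was not tested.

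**Figure D4:**
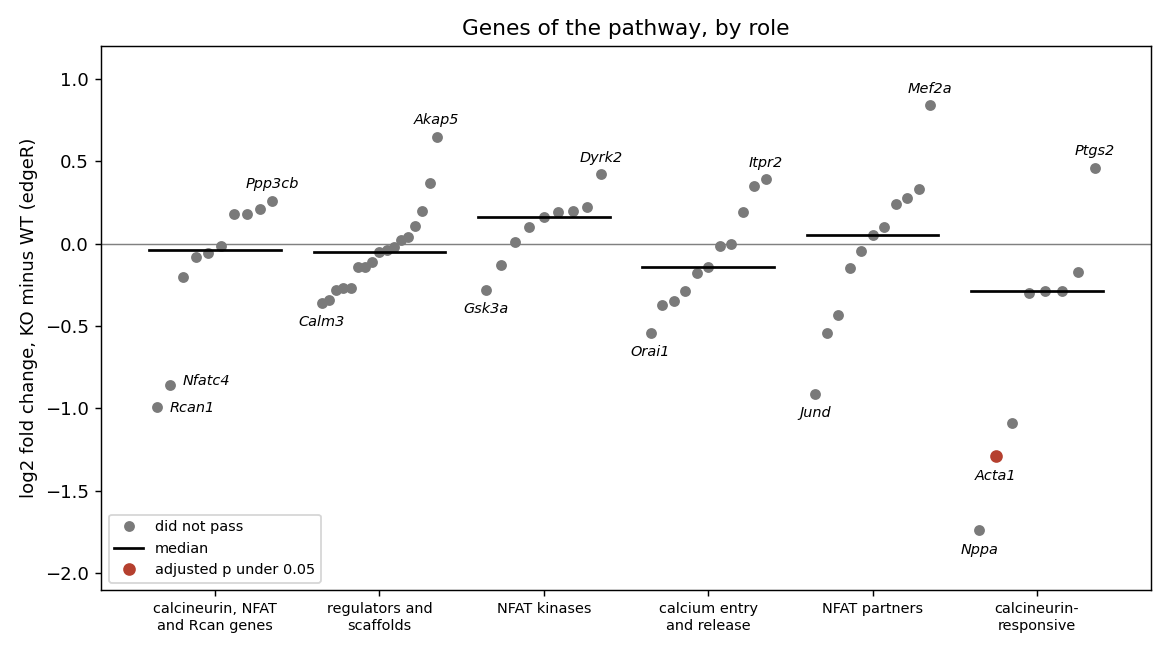
Log2 fold change (knockout minus WT) of the 10 genes and of each list of pathway genes, 1 point per gene, with the median of each list as a black line. Acta1, in red, is the 1 gene past an edgeR adjusted p of 0.05, and Rcan1, Nfatc4, Nppa, Jund and Mef2a lie furthest from 0 in their lists without passing.

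The 5 genes whose profile over the 6 libraries was nearest to that of Rcan1 were Igfbp6, Shisa3, Mgat5b, Cytl1 and Nlrp3. Likeness was the root mean square difference of centred log2 CPM, which was 0.184 for Igfbp6 and 0.226 for Nlrp3. Igfbp6, an insulin-like growth factor binding protein gene, was at 19.3, 17.5 and 13.3 CPM in the knockout and 32.0, 40.2 and 24.5 CPM in WT (log2 fold change -0.95, a direction that the choice by likeness to Rcan1 fixes). Cytl1, at 6.29, 4.29 and 4.23 CPM in the knockout and 8.60, 8.99 and 7.21 CPM in WT, was also on the list of endocardial markers. Shisa3, Mgat5b and Nlrp3 averaged 1.05 to 3.06 CPM over the libraries.

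Summed markers of several cell types were lower in the knockout, as Rcan1 and Nfatc4 were. The sum of 3 endocardial markers was 23.4 to 29.6 CPM in the knockout and 33.8 to 53.8 CPM in WT, and none of the 3 genes overlapped, against 10.5% of all genes that were lower without overlap. The 4 smooth muscle markers summed to 121 to 167 CPM in the knockout and 170 to 257 CPM in WT. Of these 4, Acta2 alone did not overlap, at 57.5 to 76.0 CPM in the knockout and at 98 to 141 CPM in WT, while Myh11, Cnn1 and Tagln overlapped. The 3 measured of 4 mesothelial markers summed to 11.3 to 16.2 CPM in the knockout and 17.7 to 41.5 CPM in WT. Msln and Upk3b were lower without overlap, and Wt1 overlapped with a log2 fold change of 0.14 (SE 0.26). The atrial sums given above did not overlap either, and 4 of the 7 atrial genes were lower without overlap. The 6 fibroblast markers summed to 910 to 1075 CPM in the knockout and 974 to 1796 CPM in WT, the 5 endothelial markers to 745 to 911 CPM in the knockout and 793 to 1183 CPM in WT, and the 5 macrophage markers to 171 to 197 CPM in the knockout and 152 to 174 CPM in WT, with overlap in each. Every gene of the table had at least 12 counts in every library, so no measured marker could be at 0. The listed markers Bmp10 and Krt19 were not among the genes measured. The part of these cell types in the values of Rcan1 and Nfatc4 was not tested. Without wild-type replicate 1, the library with the highest atrial sum, Rcan1 was at -0.92 (SE 0.31) and Nfatc4 at -0.79 (SE 0.21). Without wild-type replicate 2, the library with the highest activated fibroblast sum, Rcan1 was at -0.88 (SE 0.35) and Nfatc4 at -0.85 (SE 0.20).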

How the data were processed

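Raw whole-number counts per gene were deposited by the authors for 6 libraries, each from 1 mouse, in 1 table. The submitters' processing notes name mm10 and DESeq2, without versions. The sources used here do not name the aligner, counter, annotation, strand setting or any filter. Every gene in the table had at least 0.507 CPM in every library. The test was the quasi-likelihood one of edgeR 4.0.16 under R 4.3.3, on TMM size factors and with robust dispersion. Filtering by filterByExpr kept all 13384 genes. Genotype was the only term, with 3 knockout and 3 WT libraries. Tests were two-sided, with Benjamini-Hochberg adjustment over all genes. Standard errors come from the test statistic. Fits were tested on simulated data with known changes.

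The members, the lists and the rule for named genes were chosen with earlier results of these data known. The rule named all 10 members. From each list it took the genes past the threshold or the 3 of smallest p, besides Nppa, Nppb and Acta1. It also took the 5 genes of at least 1 CPM nearest to Rcan1. Other genes were named after their values were seen. The alternatives were RLE and upper quartile size factors, no filter, a filter of 5 CPM in 3 libraries, DESeq2 1.42.0, limma-voom (limma 3.58.1), estimation without robustness, a block for the replicate number, and fits that leave out 1 library each. A correction for GC content and length was added after seeing the data. It used splines with 4 degrees of freedom and GENCODE M21, which gave values for 95.0% of the genes. CPM per kilobase used merged exons of GENCODE M21, which may differ from the annotation the authors used.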

Additional observations from a re-analysis of the deposited data

How the results depend on the processing

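Rcan1 and Nfatc4 kept their direction under all 15 alternatives, and Rcan2 did as well. Ppp3ca and Ppp3r1 kept their sign, but the GC and length correction left them near 0, at 0.017 (SE 0.12) and 0.035 (SE 0.091). The alternative without a filter equals the main fit, since filtering removed no gene. For the genes called, 12 higher and 3 lower in the knockout, DESeq2 gave 352 and 266, limma-voom 5 lower, estimation without robustness 7 higher, the replicate block 131 and 87, and the GC and length correction 25 and 22. With 1 library left out, the calls ran from 0 to 971 higher and from 0 to 855 lower, both highest without wild-type replicate 2, and both 0 without knockout replicate 3. Of the 10 members, DESeq2 called 2 lower, and the count was 0 to 1 with 1 library left out. Of the pathway lists, where 0 genes were called higher and 1 lower, DESeq2 called 1 higher and 3 lower, and leaving out 1 library gave 0 to 4 higher and 0 to 6 lower. The cause was not tested. The replicate block, which called 1.63% of all genes, called 2 members lower, Rcan1 (edgeR adjusted p = 0.00106) and Nfatc4 (0.0453). It also called 2 list genes lower, Acta1 (edgeR adjusted p = 3.13e-05) and Nppb (0.00125). Same-numbered libraries did not deviate together (correlations of -0.121, -0.0759 and -0.149), so the number is taken as a name only. With the sign flips of same-numbered libraries, the smallest possible p is 0.25, which the exact test of both the Rcan1 and the Ppp3ca share gave. The Ppp3ca share difference ran from -3.23 to 0.902 percentage points with 1 library left out, and the Rcan1 share difference from -13.5 to -8.77. The members not overlapping numbered 5 to 7 with 1 library left out. Fewer libraries make non-overlap easier to reach, and the share of all genes was not computed for these fits. The count of members was not computed for DESeq2, limma-voom, the robustness setting, the block or the GC correction.

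Some signs turned. Nfatc1 was at 0.020 in limma-voom and 0.014 with the replicate block, and ran from -0.15 to 0.20 with 1 library left out. Rcan3 ran from -0.23 to 0.067 and Nfatc2 from -0.19 to 0.024 with 1 library left out. The GC and length correction put Ppp3cb at -0.016 (0.26 without it), Nfatc3 at -0.0021 (0.21), Fkbp8 at 0.081 (-0.34), Gsk3a at 0.044 (-0.28) and Csnk1a1 at -0.053 (0.22). At 133 counts in its lowest library, Nfatc4 is the member whose precision depth limits most.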

Other observations

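The profile of Nfatc4 was compared with those of all genes in the same way as that of Rcan1, a step added after its values were seen. The 5 nearest genes were Slc1a4, Trim67, Rem1, Prxl2a and Ntng2, with root mean square differences of 0.0903 to 0.140 in centred log2 CPM over 6 libraries. Slc1a4, a neutral amino acid transporter gene, was at 2.12, 2.83 and 2.65 CPM in the knockout and 5.10, 5.0 and 4.46 CPM in WT (log2 fold change -0.94). Rem1, a small GTPase gene of the family that restrains L-type calcium channels, was at 3.84, 5.08 and 5.60 CPM in the knockout and 9.88, 7.60 and 8.62 CPM in WT (log2 fold change -0.85). Since the genes were chosen for their likeness to Nfatc4, a lower level in the knockout is fixed by the choice.

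Ppp3cc, the third gene of a catalytic subunit and one best known from testis, was measured at 31.1, 25.8 and 30.3 CPM in the knockout and 28.1, 30.7 and 27.3 CPM in WT (log2 fold change 0.020, SE 0.13, edgeR adjusted p = 0.951). Nfat5, the NFAT relative that calcineurin does not regulate, was at 62.6, 69.5 and 76.2 CPM in the knockout and 51.3, 74.8 and 50.1 CPM in WT (log2 fold change 0.24, SE 0.16, edgeR adjusted p = 0.435).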
